A study of Mus musculus with 28 samples.

Results

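Neuronal progenitor (NP) cells lacking topoisomerase IIβ (Top2β knockout) were compared with wild-type NP cells, over all genes measured. The comparison used 4 of the 28 arrays of the study, chosen by the stage and genotype in the sample titles: 2 arrays of Top2β knockout NP cells and 2 of wild-type NP cells. Total RNA of cells of strain 129SvEv was hybridised to Affymetrix whole-transcript arrays. The other stages used here were knockout and wild-type embryonic stem (ES) cells and the later stages labelled TN day 2 and TN day 6, which the labels do not spell out. There were 2 arrays per genotype at the ES stage and at TN day 2 and 3 per genotype at TN day 6. The labels give no description of the deleted allele or of how many knockout clones were used, and do not say whether replicate arrays came from separate cultures. The p-values therefore measure the spread between arrays, which may be technical. One treatment description, with ICRF-193 or DMSO between TN days 2 and 5, stands on every sample, and the labels of the NP cells name no drug beside it.

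Topoisomerase II enzymes pass one DNA duplex through a break in another and so relieve supercoils and tangles that form when DNA is transcribed or copied. The α form works mainly in dividing cells, and the β form is the main type II enzyme of cells that have left the cell cycle. In mice the β form is needed for normal development of the nervous system, and in neurons long genes are known to be among those that depend on topoisomerases. Neural progenitors of the radial glial kind still divide, carry proteins such as PAX6, SOX1 and the glutamate transporter GLAST, and give rise to neurons.

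Each array gave 1 log2 value per probe set. The medians over all probe sets were 6.26 and 6.22 on the knockout NP arrays and 6.24 and 6.30 on the wild-type NP arrays, within the range of 6.12 to 6.43 of all 28 arrays. The knockout arrays correlated with each other at 0.997 and the wild-type arrays at 0.994 across genes, which are not independent replicates. Between genotypes the correlations were 0.992 to 0.994, so the wild-type arrays correlated with each other no more closely than the closest pair of different genotype. The SD of the difference between replicates was 0.151 in knockout and 0.249 in wild-type cells. The spread of each gene was pooled over all arrays. The 2 knockout ES arrays, whose spread enters every test below, correlated at 0.967, whereas the lowest correlation within any other group was 0.990. Counts without those arrays, and with the 4 NP arrays alone, are therefore given beside the main ones. The number of arrays limits the precision of every value.

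The labelled cell type was checked against marker genes. The mean level of 9 neural progenitor markers was 10.14 on both knockout arrays and 10.43 to 10.51 on the wild-type arrays, and at the ES stage it was 8.58 to 8.86 in knockout and 8.60 in wild-type cells. The mean of 5 pluripotency markers was 5.19 to 5.28 in knockout and 5.49 to 5.61 in wild-type NP cells, and 9.54 to 10.71 in knockout and 10.63 to 10.78 in wild-type ES cells. Neuronal markers had a mean of 9.0 to 9.11 in knockout and 9.0 to 9.12 in wild-type NP cells, so that the genotypes overlapped. Markers of other cells were measured as well: 5 endothelial markers averaged 7.45 to 7.51 in knockout and 6.58 to 6.68 in wild-type NP cells, and 6 endoderm markers averaged 7.56 to 7.60 in knockout and 7.24 to 7.28 in wild-type cells. The endoderm markers did not move together. Both knockout arrays lay above both wild-type arrays for 3 of them and below for 2, against 17.1% and 21% of all genes. A longer list of 22 endoderm genes had a median log2 fold change of -0.02. Mesenchymal markers averaged 7.70 to 7.79 in knockout and 7.64 to 7.75 in wild-type cells, and 4 microglial markers 5.34 to 5.44 in knockout and 5.39 to 5.69 in wild-type cells. The arrays come with no detection calls, so a low level is not evidence that a gene was silent.

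The deleted gene was checked first. Top2b, measured by probe set 10412844, had log2 values of 6.89 and 6.77 in knockout cells, against 9.17 and 9.10 in wild-type cells. It fell by 2.31 ± 0.24 on the log2 scale (SE of the limma model), 4.97-fold, with an adjusted p of 2.9e-05, and was called under every alternative run. The files do not say if this probe set matches a part of Top2b that the knockout removes. Top2a, which encodes the α form, had values of 10.31 and 10.37 in knockout cells, against 10.46 and 10.29 in wild-type cells (-0.04 ± 0.21, adjusted p = 1), and the genotypes overlapped. None of the 20 measured genes nearest to Top2b on chromosome 14, 10 on each side, passed the test (log2 fold changes of -0.26 to 0.31, smallest adjusted p = 0.66, limma), and 1 had an unadjusted p under 0.05. Among them Rarb and Thrb, which encode receptors for retinoic acid and thyroid hormone, had fold changes of 0.05 and -0.03 on the log2 scale.

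Of 19938 genes, 125 were called at an adjusted p under 0.05 (0.627%), of which 76 were higher (0.381%) and 49 lower (0.246%) in knockout NP cells. At an unadjusted p under 0.05 there were 1501. The genes that rose did so by 0.38 to 2.01 on the log2 scale, with a median of 0.88, and the genes that fell, Top2b aside, had a median change of -0.68. A change of 2-fold or more was seen for 29 of the higher and 7 of the lower genes, and the median over all genes was -0.02. On the arrays of all 125 called genes the genotypes did not overlap, whereas over all genes both knockout arrays lay above both wild-type arrays for 17.1% and below both for 21% of genes. Calls numbered 377 (1.89%), 236 higher and 141 lower, without the 2 knockout ES arrays, and 201 (1.01%), 146 higher and 55 lower, with the 4 NP arrays alone. Leaving out a knockout array left 37 calls in either case. Leaving out wild-type array 1 left 57 higher and 15 lower, and leaving out wild-type array 2 left 23 higher and 37 lower, so the majority of calls turned from higher to lower. There were 24 genes called in every setting that tested them. Apart from Top2b, the rule for names picked 53 called genes, of which 16 kept their call under every alternative that tested them, and among these are Stk26, Cyp2d22, Agtr1a, Nrxn3, Th, Sv2a and Wnt4.

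**Figure D1:**
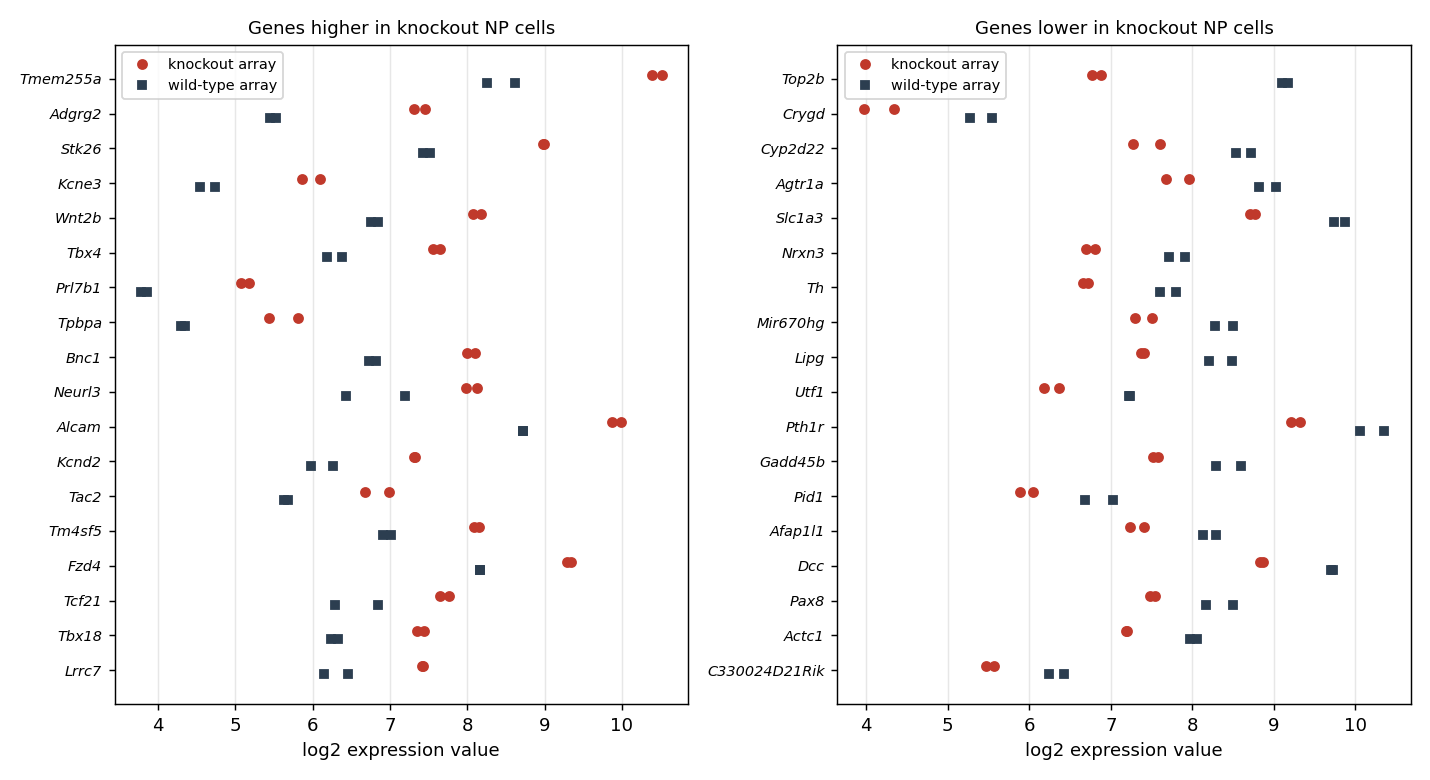
Log2 expression value of each NP array for the 18 called genes with the largest rise (left) and the 18 with the largest fall (right), with knockout arrays as circles and wild-type arrays as squares. The genes were chosen for this difference. For Tmem255a the knockout arrays lie at 10.38 and 10.51 and the wild-type arrays at 8.61 and 8.26, and in no gene shown do the genotypes overlap.

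The 3 largest rises were all of genes on the X chromosome. Tmem255a, which encodes a membrane protein, had log2 values of 10.38 and 10.51 in knockout cells, against 8.61 and 8.26 in wild-type cells (2.01 ± 0.36, adjusted p = 0.0074), 4.03-fold. Adgrg2, an adhesion G protein-coupled receptor best known from the male reproductive tract, had 7.31 and 7.45 in knockout cells, against 5.53 and 5.45 in wild-type cells (1.89 ± 0.24, adjusted p = 0.00031). Stk26, a kinase of the germinal centre family, had 8.99 and 8.98 in knockout cells, against 7.51 and 7.43 in wild-type cells (1.51 ± 0.18, adjusted p = 0.00018). Both knockout arrays of all 3 genes lay far outside the wild-type pair. Of 27 adhesion G protein-coupled receptors 2 were higher and none lower (median -0.01), against 0.381% and 0.246% of all genes. Stk26 was the single call of 22 germinal centre kinases and their partners (median 0.01). Here and below, the lists were chosen with earlier results of these data known, so counts of their calls describe the lists and support nothing. Another 4 genes of the X chromosome rose by less: Acot9 (0.80), Rai2 (0.74), F8 (0.51), which encodes a clotting factor, and Dock11 (0.41). These 4 were named after their values were seen. On the X chromosome 7 of 739 genes rose (0.947%) and none fell, and on the other chromosomes 69 of 19112 rose (0.361%) and 49 fell. Xist, the RNA of the inactive X chromosome, was low in both genotypes (3.81 and 3.74 in knockout and 4.09 and 4.08 in wild-type cells, adjusted p = 0.72). The Y chromosome genes Uty (7.55 and 7.77 in knockout and 7.84 and 7.43 in wild-type cells) and Eif2s3y (8.34 and 8.42 in knockout and 8.46 and 8.09 in wild-type cells) had values that overlapped between genotypes.

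The promoters of these 3 genes, and of Crygd and Slc1a3, the genes with the largest falls, Top2b aside, for which the RefSeq table held a single window, are shown to give the sequence around the starts of the genes that moved most. Each is a RefSeq window of 300 bases around the gene's start in GRCm38.p6, and capitals mark matches, on either strand, to the TATA box letters TATAAA, the CAAT box letters CCAAT and the GC box letters GGGCGG, which do not overlap one another in these windows.
Tmem255a (chrX:38252432-38252731, minus strand): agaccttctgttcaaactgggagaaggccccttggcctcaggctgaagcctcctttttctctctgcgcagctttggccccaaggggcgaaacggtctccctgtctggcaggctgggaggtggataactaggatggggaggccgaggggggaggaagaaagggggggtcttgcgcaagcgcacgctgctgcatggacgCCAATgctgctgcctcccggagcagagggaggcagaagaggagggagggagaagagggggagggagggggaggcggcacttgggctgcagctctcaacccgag
Adgrg2 (chrX:160390440-160390739, plus strand): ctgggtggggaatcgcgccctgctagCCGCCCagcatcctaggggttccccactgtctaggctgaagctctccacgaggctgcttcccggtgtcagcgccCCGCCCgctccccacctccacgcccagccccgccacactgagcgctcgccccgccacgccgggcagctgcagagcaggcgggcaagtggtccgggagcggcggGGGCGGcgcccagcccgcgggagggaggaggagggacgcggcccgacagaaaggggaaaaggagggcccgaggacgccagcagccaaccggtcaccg
Stk26 (chrX:50841121-50841420, plus strand): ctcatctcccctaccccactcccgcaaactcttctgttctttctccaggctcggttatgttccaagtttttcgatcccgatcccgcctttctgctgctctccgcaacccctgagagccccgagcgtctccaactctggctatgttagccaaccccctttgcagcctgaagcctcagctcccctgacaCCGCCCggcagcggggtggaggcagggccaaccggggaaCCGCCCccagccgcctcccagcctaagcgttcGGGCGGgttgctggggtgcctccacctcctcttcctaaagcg
Crygd (chr1:65063391-65063690, minus strand): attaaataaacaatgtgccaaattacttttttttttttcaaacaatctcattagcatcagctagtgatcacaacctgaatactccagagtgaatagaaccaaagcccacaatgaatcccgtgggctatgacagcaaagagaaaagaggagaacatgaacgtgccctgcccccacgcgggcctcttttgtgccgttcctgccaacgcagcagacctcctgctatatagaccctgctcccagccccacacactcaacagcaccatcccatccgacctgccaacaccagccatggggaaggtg
Slc1a3 (chr15:8710758-8711057, minus strand): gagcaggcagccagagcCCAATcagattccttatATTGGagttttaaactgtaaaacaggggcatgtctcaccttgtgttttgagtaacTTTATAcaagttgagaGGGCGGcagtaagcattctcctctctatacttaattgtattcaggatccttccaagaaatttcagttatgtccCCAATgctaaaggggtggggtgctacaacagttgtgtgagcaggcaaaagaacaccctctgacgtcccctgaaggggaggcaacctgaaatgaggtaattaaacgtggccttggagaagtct
Adgrg2 and Stk26 each held 3 matches to GGGCGG, Tmem255a a single CCAAT, Crygd no match, and Slc1a3 5 matches in all. The CG dinucleotide occurred 30 times in the Adgrg2 window, 18 in that of Stk26, 11 in that of Tmem255a, 7 in that of Crygd and 3 in that of Slc1a3. Among genes with 1 window, GGGCGG was present in 60.4% of 53 higher genes and 69.0% of 29 lower genes, against 49.3% of all 12935. CCAAT was present in 37.7%, 31.0% and 38.7%, and TATAAA in 11.3%, 24.1% and 12.9%. These are descriptions of letters in a window.

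A group of higher genes is known from the lining of the body cavities and the outer layer of the developing heart, kidney and gonad. Wt1, a zinc finger factor of mesothelium and kidney, had log2 values of 10.07 and 10.07 in knockout cells, against 9.13 and 8.88 in wild-type cells (1.06 ± 0.18, adjusted p = 0.0037). Bnc1, a zinc finger protein of mesothelium and epithelium, had 8.09 and 8.0 in knockout cells, against 6.81 and 6.73 in wild-type cells (1.28 ± 0.24, adjusted p = 0.011). In both genes, as in every called gene, the genotypes were separate on all arrays. Wnt2b, a Wnt ligand, had 8.17 and 8.07 in knockout cells, against 6.85 and 6.75 in wild-type cells (1.32 ± 0.22, adjusted p = 0.0037), and Tcf21, a helix-loop-helix factor of epicardium and kidney mesenchyme, had 7.76 and 7.65 in knockout cells, against 6.84 and 6.29 in wild-type cells (1.14 ± 0.20, adjusted p = 0.0056). The T-box factor Tbx18 of the epicardium had 7.45 and 7.36 in knockout cells, against 6.33 and 6.23 in wild-type cells (1.12 ± 0.25, adjusted p = 0.034). For Tcf21 the wild-type arrays differed from each other by more than the knockout arrays did. Upk3b (1.04 ± 0.22), Lrrn4 (1.11 ± 0.25), Bnc2 (0.95 ± 0.19) and Zfpm2 (1.02 ± 0.22), a partner of GATA factors, rose too. Among the other large rises was Tbx4, a T-box factor of limb and lung mesenchyme, with 7.55 and 7.65 in knockout cells, against 6.19 and 6.38 in wild-type cells (1.32 ± 0.22, adjusted p = 0.0037).

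A list of 20 mesothelial and coelomic genes was put together after these values had been seen, so its counts are a description and support nothing. Of its members 9 were called higher and none lower, against 0.381% and 0.246% of all genes. The members' median log2 fold change was 0.92, against -0.02 over all genes. Their mean level was 8.20 and 8.24 on the knockout arrays and 7.63 and 7.42 on the wild-type arrays. Members that did not pass included Osr1 (0.59 ± 0.42) and Podxl (0.71 ± 0.36), and Msln, which encodes mesothelin, had 5.35 and 5.05 in knockout and 5.15 and 5.23 in wild-type cells with overlapping genotypes. The count of members called was 11 with the 4 NP arrays alone and between 0 and 4 with any 1 NP array left out, the lowest count being without knockout replicate 1 and without wild-type replicate 2. In bulk RNA, more or fewer cells of a type and more or less RNA per cell cannot be told apart, and the part of mesothelial or vascular cells in the results on neural genes below was not tested.

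Most genes of blood vessels had higher values in knockout cells, and few of them passed the test. Of 26 measured endothelial and mural genes, 24 had a positive fold change, the median was 0.49, and the list's mean level was 7.19 and 7.18 on the knockout arrays and 6.73 and 6.68 on the wild-type arrays. Only 2 members, Cldn5 and Plvap, were called higher and none lower, against 0.381% and 0.246% of all genes. Every knockout array lay above every wild-type array for 22 members and below for 2, against 17.1% and 21% of all genes. Cldn5, a tight junction protein, had 7.47 and 7.39 in knockout cells, against 6.59 and 6.81 in wild-type cells (0.73 ± 0.15, adjusted p = 0.022), and Plvap, a protein of the diaphragms of fenestrated endothelium, had 7.54 and 7.73 in knockout cells, against 6.86 and 6.98 in wild-type cells (0.71 ± 0.13, adjusted p = 0.0056). Without the 2 knockout ES arrays 11 members were called higher and with the 4 NP arrays alone 8, and with 1 NP array left out 0 or 1. No member was called without knockout replicate 2 or without wild-type replicate 1.

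The size of change varied within the vascular genes. Cdh5, the cadherin of endothelial junctions, had the widest gap, with 8.95 and 9.30 in knockout cells, against 7.60 and 7.18 in wild-type cells, but did not pass (1.74 ± 0.46, adjusted p = 0.11). Its SD over the 2 ES knockout arrays was 1.93, against 0.24 over the NP knockout arrays, and its adjusted p was 1.8e-05 without the ES knockout arrays. Kdr, the main receptor for VEGF, had 7.76 and 7.82 in knockout and 7.03 and 6.68 in wild-type cells (adjusted p = 0.73), and Pecam1 had 7.13 and 7.04 in knockout and 6.76 and 6.47 in wild-type cells (adjusted p = 0.59). Outside the list, and named after their values were seen, Cd34 (1.08 ± 0.18, adjusted p = 0.0032), Gja5 (0.91 ± 0.19, adjusted p = 0.022), a gap junction protein of arterial cells, Myct1 (0.76 ± 0.16, adjusted p = 0.029), Bcl6b (0.68 ± 0.12, adjusted p = 0.0075) and Gucy1a1 (0.81 ± 0.17, adjusted p = 0.022) rose. Lipg, a lipase of endothelium that is also outside the list, fell (-0.96 ± 0.16, adjusted p = 0.0037). Adgrf5, an adhesion receptor of endothelial and lung cells, had 7.14 and 7.12 in knockout cells, against 6.22 and 6.02 in wild-type cells (1.01 ± 0.15, adjusted p = 0.0014). The microglial and macrophage list had no call among 13 genes and a median of -0.04.

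Genes of the early mesoderm and the embryonic globins did not pass the test, although several separated the genotypes in either direction. Tbx5, a T-box factor of heart and forelimb, had 8.70 and 8.88 in knockout and 7.81 and 7.08 in wild-type cells (1.35 ± 0.37, adjusted p = 0.13), and Foxf1, a factor of the splanchnic mesoderm, had 10.94 and 11.13 in knockout and 10.01 and 9.72 in wild-type cells (1.17 ± 0.45, adjusted p = 0.46). The GATA factors of heart and gut had 9.85 and 9.93 in knockout and 8.93 and 9.01 in wild-type cells for Gata4 (adjusted p = 0.49) and 10.99 and 11.03 in knockout and 10.19 and 9.97 in wild-type cells for Gata6 (adjusted p = 0.74). For these genes the genotypes did not overlap. The embryonic globin Hbb-y had 6.74 and 6.60 in knockout and 5.32 and 5.40 in wild-type cells (adjusted p = 0.13), and Hba-x 8.45 and 8.40 in knockout and 7.34 and 7.23 in wild-type cells (adjusted p = 0.57). Of 15 early mesoderm genes none was called and the median was 0.09. Both knockout arrays lay above both wild-type arrays for 6 of them and below for 5, against 17.1% and 21% of all genes. The genes given singly above were all higher in knockout cells, so those 5 are not among them. They were chosen with their values or earlier results of these data known. A list of embryonic blood genes, put together after values were seen, had 8 positive and 4 negative fold changes over 12 measured genes. Both knockout arrays lay above both wild-type arrays for 7 of the 12 and below for 1. Of 22 endoderm genes none was called and the median was -0.02. With the ES knockout arrays left out 3 early mesoderm genes were called higher and 1 lower.

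Secreted signals and their receptors were partly among the higher genes. Of 30 listed Wnt pathway genes, 2, Wnt4 and Rspo1, were higher and none lower (median 0.08), against 0.381% and 0.246% of all genes. Wnt4, a ligand of kidney and gonad development, had 8.68 and 8.52 in knockout cells, against 7.60 and 7.77 in wild-type cells (0.91 ± 0.12, adjusted p = 0.00054) and stayed called under every alternative run. Rspo1, a secreted enhancer of Wnt signals, had 9.21 and 9.22 in knockout cells, against 8.52 and 8.15 in wild-type cells (0.88 ± 0.17, adjusted p = 0.011). Fzd4, a receptor for Wnt ligands and Norrin, had 9.29 and 9.34 in knockout cells, against 8.17 and 8.17 in wild-type cells (1.15 ± 0.26, adjusted p = 0.047). Fzd4 and the ligand Wnt2b, which also rose, were not on that list. The arrays of Wnt4, Rspo1 and Fzd4 separated the genotypes, as those of every called gene did. Fzd4 was called in 10 of the 14 alternatives run. Of 30 BMP and TGF-beta genes none was called, the median was 0.25, and 18 had every knockout array above every wild-type array, against 17.1% of all genes. The widest gap in that list was that of the ligand Tgfb2, with 9.75 and 9.77 in knockout and 8.61 and 8.25 in wild-type cells (adjusted p = 0.23). Amhr2, the receptor for anti-Müllerian hormone, named after its values were seen, rose (0.83 ± 0.15, adjusted p = 0.0056).

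Other pathways had few calls. In the FGF and receptor tyrosine kinase list Fgfr4, a receptor for FGFs, was the single call of 28 and fell, with 6.96 and 7.03 in knockout cells, against 7.68 and 7.52 in wild-type cells (-0.60 ± 0.14, adjusted p = 0.047). The median of that list was 0.10. In the Notch list Dner, a transmembrane protein of neurons with EGF repeats, was the single call of 21 genes and fell, with 8.08 and 7.96 in knockout cells, against 8.70 and 8.59 in wild-type cells (-0.63 ± 0.09, adjusted p = 0.001). The Notch median was -0.25. Both knockout arrays lay below both wild-type arrays for 12 of the 21 and above for 4, against 21% and 17.1% of all genes. The Notch target Hes5 had 9.17 and 9.03 in knockout and 9.56 and 9.63 in wild-type cells (adjusted p = 0.71). Of 14 sonic hedgehog genes, 24 retinoic acid genes and 26 Hox genes, none was called, with medians of 0.09, -0.05 and 0.0. Cyp26a1, the enzyme that breaks down retinoic acid, had 9.79 and 9.87 in knockout and 10.34 and 10.25 in wild-type cells (adjusted p = 1), and Hoxc8 had 7.30 and 7.38 in knockout and 6.34 and 6.48 in wild-type cells (adjusted p = 0.5).

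**Figure D2:**
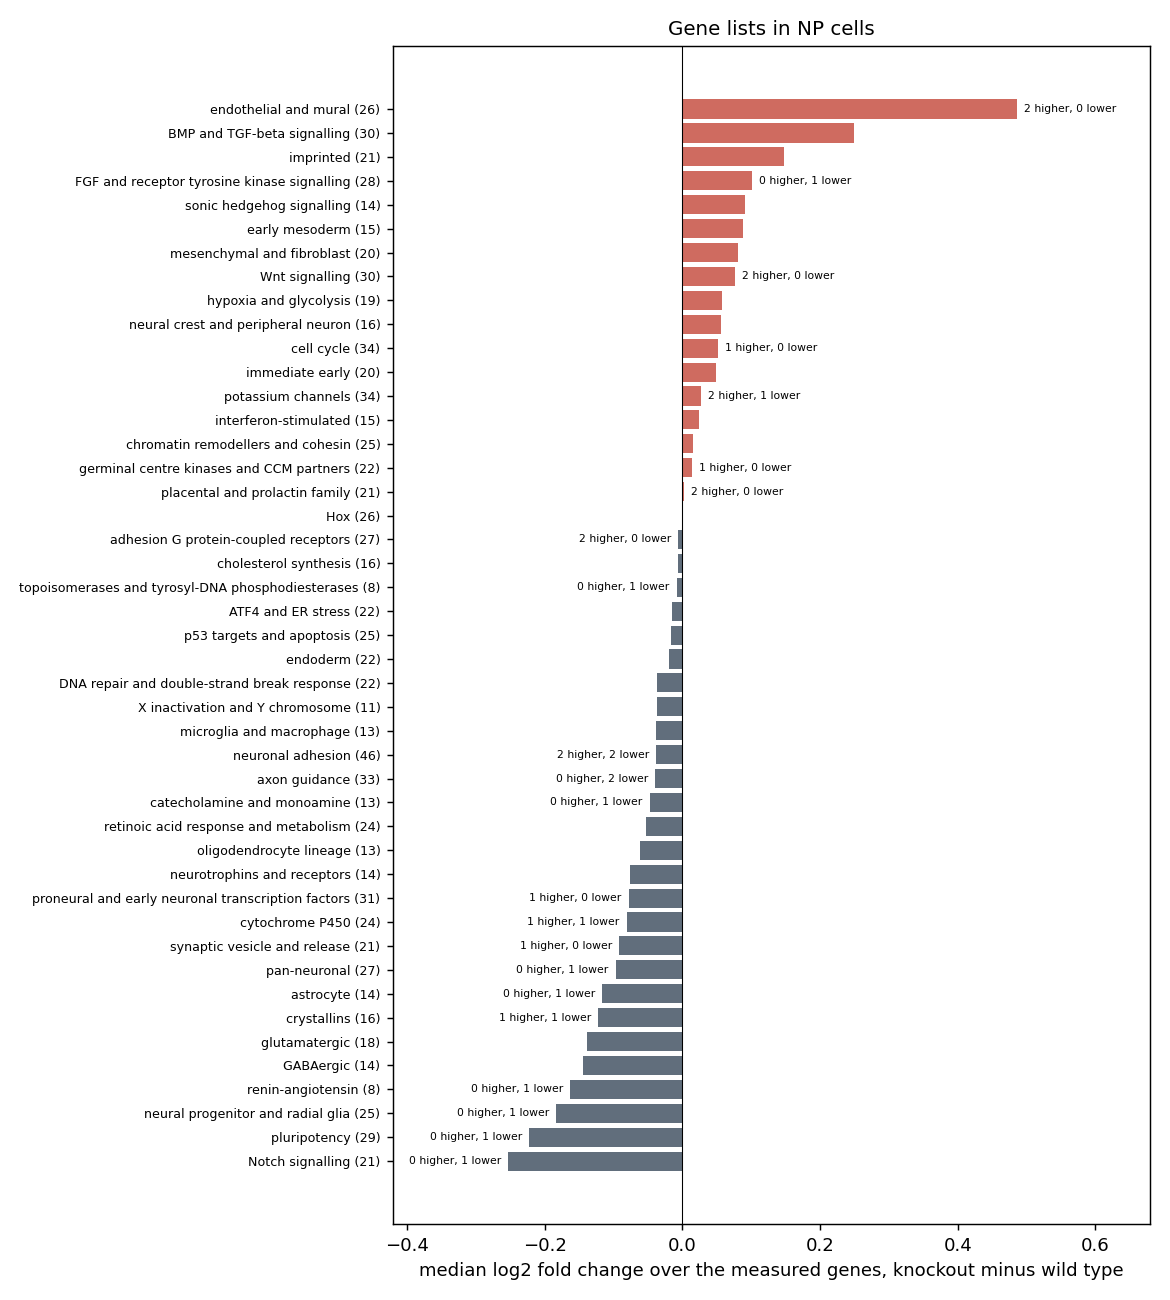
Median log2 fold change, knockout minus wild type in NP cells, over the measured genes of each list, with the number measured in brackets and the number called beside the bar where any was. The lists drawn were chosen with earlier results of these data known. Those put together later, after values were seen, are not drawn. Of those drawn, the endothelial and mural list lies highest at 0.49 and the Notch list lowest at -0.25, against a median of -0.02 over all genes.

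Neural progenitor genes were mostly lower, with a single call. Of 25 measured genes of progenitors and radial glia, 18 had a negative fold change and the median was -0.18, and 15 had every knockout array below every wild-type array, against 21% of all genes. Slc1a3, which encodes the glutamate transporter GLAST, was the gene that fell, with 8.70 and 8.77 in knockout cells, against 9.87 and 9.74 in wild-type cells (-1.07 ± 0.23, adjusted p = 0.027). It lost its call with any of the 4 NP arrays left out, and it is also the single call of 14 astrocyte genes (median -0.12). Pax6, a factor of radial glia, had 9.84 and 9.96 in knockout and 10.47 and 10.41 in wild-type cells (adjusted p = 0.75), Sox1 had 8.39 and 8.27 in knockout and 8.75 and 8.65 in wild-type cells (adjusted p = 0.53) and Nes, which encodes nestin, 9.98 and 9.89 in knockout and 10.13 and 9.80 in wild-type cells (adjusted p = 1). The arrays of Pax6 and Sox1 separated the genotypes and those of Nes did not. Of 9 progenitor markers, 7 were lower on both knockout arrays and Fabp7 was higher.

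Genes of neuronal adhesion and axon guidance were called in both directions. Nrxn3, a presynaptic adhesion protein, had 6.81 and 6.69 in knockout cells, against 7.91 and 7.71 in wild-type cells (-1.06 ± 0.16, adjusted p = 0.0015) and was called under every alternative run. Nlgn1, a postsynaptic partner of neurexins, had 5.45 and 5.23 in knockout cells, against 6.04 and 5.99 in wild-type cells (-0.68 ± 0.15, adjusted p = 0.046). Both genes thus fell on the same arrays, Nlgn1 close to the threshold. Cdh10, a cadherin, had 7.42 and 7.44 in knockout cells, against 6.84 and 6.57 in wild-type cells (0.73 ± 0.14, adjusted p = 0.013) and Cntn1, a contactin of axons, had 6.78 and 6.95 in knockout cells, against 6.26 and 6.18 in wild-type cells (0.65 ± 0.12, adjusted p = 0.011); these were the 2 of 46 adhesion genes that rose. The list's median was -0.04, and of all genes 0.381% were called higher and 0.246% lower. Of 33 axon guidance genes, 2 fell and none rose (median -0.04), against 0.246% and 0.381% of all genes. Dcc, a netrin receptor, had 8.84 and 8.86 in knockout cells, against 9.73 and 9.70 in wild-type cells (-0.86 ± 0.17, adjusted p = 0.018), and Unc5a, another netrin receptor, had 11.06 and 10.96 in knockout cells, against 11.62 and 11.55 in wild-type cells (-0.57 ± 0.11, adjusted p = 0.017). Of the alternatives that tested them, Dcc was called in 10 of 14, Unc5a in 7 of 14 and Nlgn1 in 5 of 13.

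Other neuronal genes fell. Th, tyrosine hydroxylase, the rate-limiting enzyme of catecholamine synthesis, had 6.72 and 6.66 in knockout cells, against 7.80 and 7.61 in wild-type cells (-1.01 ± 0.16, adjusted p = 0.0016) and was the single call of 13 catecholamine and monoamine genes. Nsg2, an endosomal protein of neurons, had 8.19 and 7.91 in knockout cells, against 8.71 and 8.65 in wild-type cells (-0.63 ± 0.14, adjusted p = 0.037) and was the single call of 27 pan-neuronal genes (median -0.10). As in every called gene, the genotypes did not overlap for either of them. Of 34 potassium channel genes 2, Kcnd2 and Kcne3, were higher and 1 was lower (median 0.03), against 0.381% and 0.246% of all genes. The lower one, Kcnh1, a voltage-gated channel, had 6.61 and 6.74 in knockout cells, against 7.42 and 7.20 in wild-type cells (-0.63 ± 0.14, adjusted p = 0.045). Named after their values were seen, the calcium channel subunit Cacna2d3 (-0.73 ± 0.14, adjusted p = 0.0096), the granule protein Chgb (-0.58 ± 0.13, adjusted p = 0.039), the neuronal enolase Eno2 (-0.55 ± 0.12, adjusted p = 0.028) and the kinase subunit Camk2b (-0.65 ± 0.12, adjusted p = 0.0062) fell. The markers Tubb3 (9.04 and 8.80 in knockout and 8.79 and 8.52 in wild-type cells), Dcx (9.79 and 9.69 in knockout and 9.81 and 9.69 in wild-type cells) and Map2 (10.04 and 10.02 in knockout and 10.12 and 10.02 in wild-type cells) did not pass. Of 18 glutamatergic and 14 GABAergic genes none was called (both medians -0.14).

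Other genes known from neurons or the developing forebrain rose. Kcnd2, which forms a rapidly inactivating potassium channel, had 7.31 and 7.32 in knockout cells, against 5.98 and 6.27 in wild-type cells (1.19 ± 0.16, adjusted p = 0.00054). Sv2a, a synaptic vesicle protein, had 9.02 and 9.05 in knockout cells, against 8.03 and 7.93 in wild-type cells (1.06 ± 0.10, adjusted p = 8.1e-06), was the single call of 21 vesicle genes (median -0.09) and was called under every alternative run. For both genes the replicates lay closer to each other than to the other genotype. Lrrc7, a postsynaptic scaffold protein, had 7.41 and 7.42 in knockout cells, against 6.46 and 6.15 in wild-type cells (1.11 ± 0.24, adjusted p = 0.03). Lhx2, a LIM homeobox factor of the forebrain and eye, had 8.71 and 8.71 in knockout cells, against 7.89 and 7.51 in wild-type cells (1.01 ± 0.21, adjusted p = 0.021) and was the single call of 31 early neuronal transcription factors (median -0.08). Grin2c, an NMDA receptor subunit (0.85 ± 0.13, adjusted p = 0.0018), Neto2, a partner of kainate receptors (0.86 ± 0.12, adjusted p = 0.00054), and Cnih2, a partner of AMPA receptors (0.51 ± 0.10, adjusted p = 0.013), were named after their values were seen and rose. Tac2, the precursor of neurokinin B, had 6.99 and 6.68 in knockout cells, against 5.63 and 5.68 in wild-type cells (1.18 ± 0.22, adjusted p = 0.0087). In wild-type cells Lhx2, Grin2c and Tac2 averaged 7.70, 6.73 and 5.66 at the NP stage and 6.19, 5.86 and 4.52 at TN day 2. The wild-type means of Kcnd2, Sv2a, Lrrc7, Neto2 and Cnih2 were higher at TN day 2 than at the NP stage.

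Several called genes belong to gene families that are best known from other tissues. Kcne3, an accessory subunit of potassium channels in epithelia, had 5.86 and 6.10 in knockout cells, against 4.54 and 4.74 in wild-type cells (1.33 ± 0.15, adjusted p = 9.2e-05). Tpbpa, a marker of the spongiotrophoblast of the placenta, had 5.43 and 5.81 in knockout cells, against 4.35 and 4.29 in wild-type cells (1.30 ± 0.20, adjusted p = 0.0014) and Prl7b1, a placental hormone of the prolactin family, had 5.17 and 5.07 in knockout cells, against 3.78 and 3.85 in wild-type cells (1.31 ± 0.14, adjusted p = 2.9e-05). They were the 2 calls, both higher, among 21 genes of that list (median 0.0), against 0.381% of all genes. Both lay below the median gene at 6.79 on all arrays. Of the 76 higher and 49 lower genes, 16 and 6 had all 4 arrays below that level. Alcam, an adhesion protein of the immunoglobulin family, had 9.88 and 9.98 in knockout cells, against 8.72 and 8.72 in wild-type cells (1.21 ± 0.28, adjusted p = 0.047). Neurl3 (1.24 ± 0.21, adjusted p = 0.004) and Tm4sf5 (1.16 ± 0.19, adjusted p = 0.0037) rose as well. The wild-type arrays of Neurl3 differed from each other more than those of most other genes named, with 8.12 and 7.98 in knockout and 7.19 and 6.44 in wild-type cells.

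Among the genes that fell, Crygd, a γ-crystallin of the lens, had 4.34 and 3.97 in knockout cells, against 5.54 and 5.27 in wild-type cells (-1.25 ± 0.18, adjusted p = 0.00092). Crym, which encodes a protein that binds thyroid hormone, was the other call of 16 crystallin genes and rose (0.97 ± 0.20, adjusted p = 0.02). Cyp2d22, a cytochrome P450 enzyme, had 7.28 and 7.60 in knockout cells, against 8.72 and 8.54 in wild-type cells (-1.19 ± 0.15, adjusted p = 0.00023), and Cyp2s1, another cytochrome P450, rose (0.85 ± 0.18, adjusted p = 0.029). The crystallin and cytochrome P450 lists therefore each held 1 call in each direction. Agtr1a, a receptor for angiotensin II, had 7.67 and 7.95 in knockout cells, against 8.82 and 9.03 in wild-type cells (-1.11 ± 0.12, adjusted p = 2.9e-05) and was the single call of 8 renin-angiotensin genes. These lists were chosen with earlier results of these data known, so the counts describe them only. Cyp2d22 and Agtr1a were called under every alternative run.

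The other large falls were of genes with diverse roles. Gadd45b, a stress-response gene, had 7.51 and 7.58 in knockout cells, against 8.59 and 8.29 in wild-type cells (-0.90 ± 0.20, adjusted p = 0.034). Pth1r, the receptor for parathyroid hormone, had 9.20 and 9.32 in knockout cells, against 10.36 and 10.06 in wild-type cells (-0.95 ± 0.20, adjusted p = 0.022). Pax8, a factor of kidney, thyroid and hindbrain, had 7.48 and 7.54 in knockout cells, against 8.50 and 8.17 in wild-type cells (-0.83 ± 0.16, adjusted p = 0.015). In these 3 genes the wild-type arrays differed from each other by more than the knockout arrays. Actc1, the cardiac α-actin, had 7.19 and 7.20 in knockout cells, against 7.97 and 8.05 in wild-type cells (-0.82 ± 0.13, adjusted p = 0.0023). Pid1 (-0.89 ± 0.12, adjusted p = 0.00057), Lipg (-0.96 ± 0.16, adjusted p = 0.0037), which encodes a lipase of endothelium, Afap1l1 (-0.89 ± 0.12, adjusted p = 0.00057), Mir670hg (-0.98 ± 0.16, adjusted p = 0.0023) and C330024D21Rik (-0.81 ± 0.16, adjusted p = 0.012) completed the 18 largest falls with Utf1 and Top2b.

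Genes of pluripotent cells had low levels that were mostly lower in knockout cells. Utf1, a chromatin factor of ES cells, had 6.37 and 6.19 in knockout cells, against 7.23 and 7.24 in wild-type cells (-0.95 ± 0.15, adjusted p = 0.0018) and was the single call of 29 pluripotency genes, of which 25 had a negative fold change (median -0.22). Nanog had 6.14 and 6.19 in knockout and 6.68 and 6.48 in wild-type cells (adjusted p = 0.75), and Pou5f1, which encodes OCT4, 4.88 and 4.73 in knockout and 5.74 and 4.86 in wild-type cells (adjusted p = 0.64). The first wild-type array stood higher for Pou5f1 than the other 3 arrays. In the cell cycle list Tyms, thymidylate synthase, was the single call of 34 and rose, with 9.56 and 9.47 in knockout cells, against 8.94 and 8.69 in wild-type cells (0.69 ± 0.15, adjusted p = 0.032), and the median was 0.05. Of 25 p53 target and apoptosis genes and 22 genes of DNA repair none was called (medians of -0.02 and -0.04). Perp, a p53 target, had 6.99 and 7.08 in knockout and 7.58 and 7.32 in wild-type cells and Rad50, of the MRE11 complex, 8.45 and 8.64 in knockout and 9.01 and 8.73 in wild-type cells. Among mesenchymal (20 genes), imprinted (21), neural crest (16), oligodendrocyte (13) and neurotrophin genes (14) there was no call, with medians of 0.08, 0.15, 0.06, -0.06 and -0.08. No call came from the lists of chromatin remodellers and cohesin, immediate early genes, ER stress, hypoxia, interferon or cholesterol synthesis, whose medians lay between -0.01 and 0.06. The 23 lists without a call held 420 genes, of which 43 (10.2%) had an unadjusted p under 0.05, against 7.53% of all genes (limma).

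The levels over the stages place these genes in the differentiation. Wt1 averaged 10.07 ± 0.0 in knockout and 9.0 ± 0.17 in wild-type NP cells (SD, n = 2 each), and 7.15 ± 0.19 in knockout and 7.34 ± 0.04 in wild-type ES cells. At TN day 2 it averaged 9.23 ± 0.34 in knockout and 7.47 ± 0.48 in wild-type cells. In both genotypes its level was thus highest at the NP stage. Slc1a3 averaged 8.74 ± 0.05 in knockout and 9.81 ± 0.09 in wild-type NP cells, and 8.27 ± 0.43 in knockout and 7.39 ± 0.24 in wild-type cells at TN day 2. Nrxn3 averaged 6.75 ± 0.08 in knockout and 7.81 ± 0.14 in wild-type NP cells, and 7.29 ± 0.10 in knockout and 9.05 ± 0.13 in wild-type cells at TN day 6 (n = 3 each). For Slc1a3 the order of the genotypes at TN day 2 was the opposite of that in NP cells. For Nrxn3 the order was the same at the NP stage, TN day 2 and TN day 6.

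**Figure D3:**
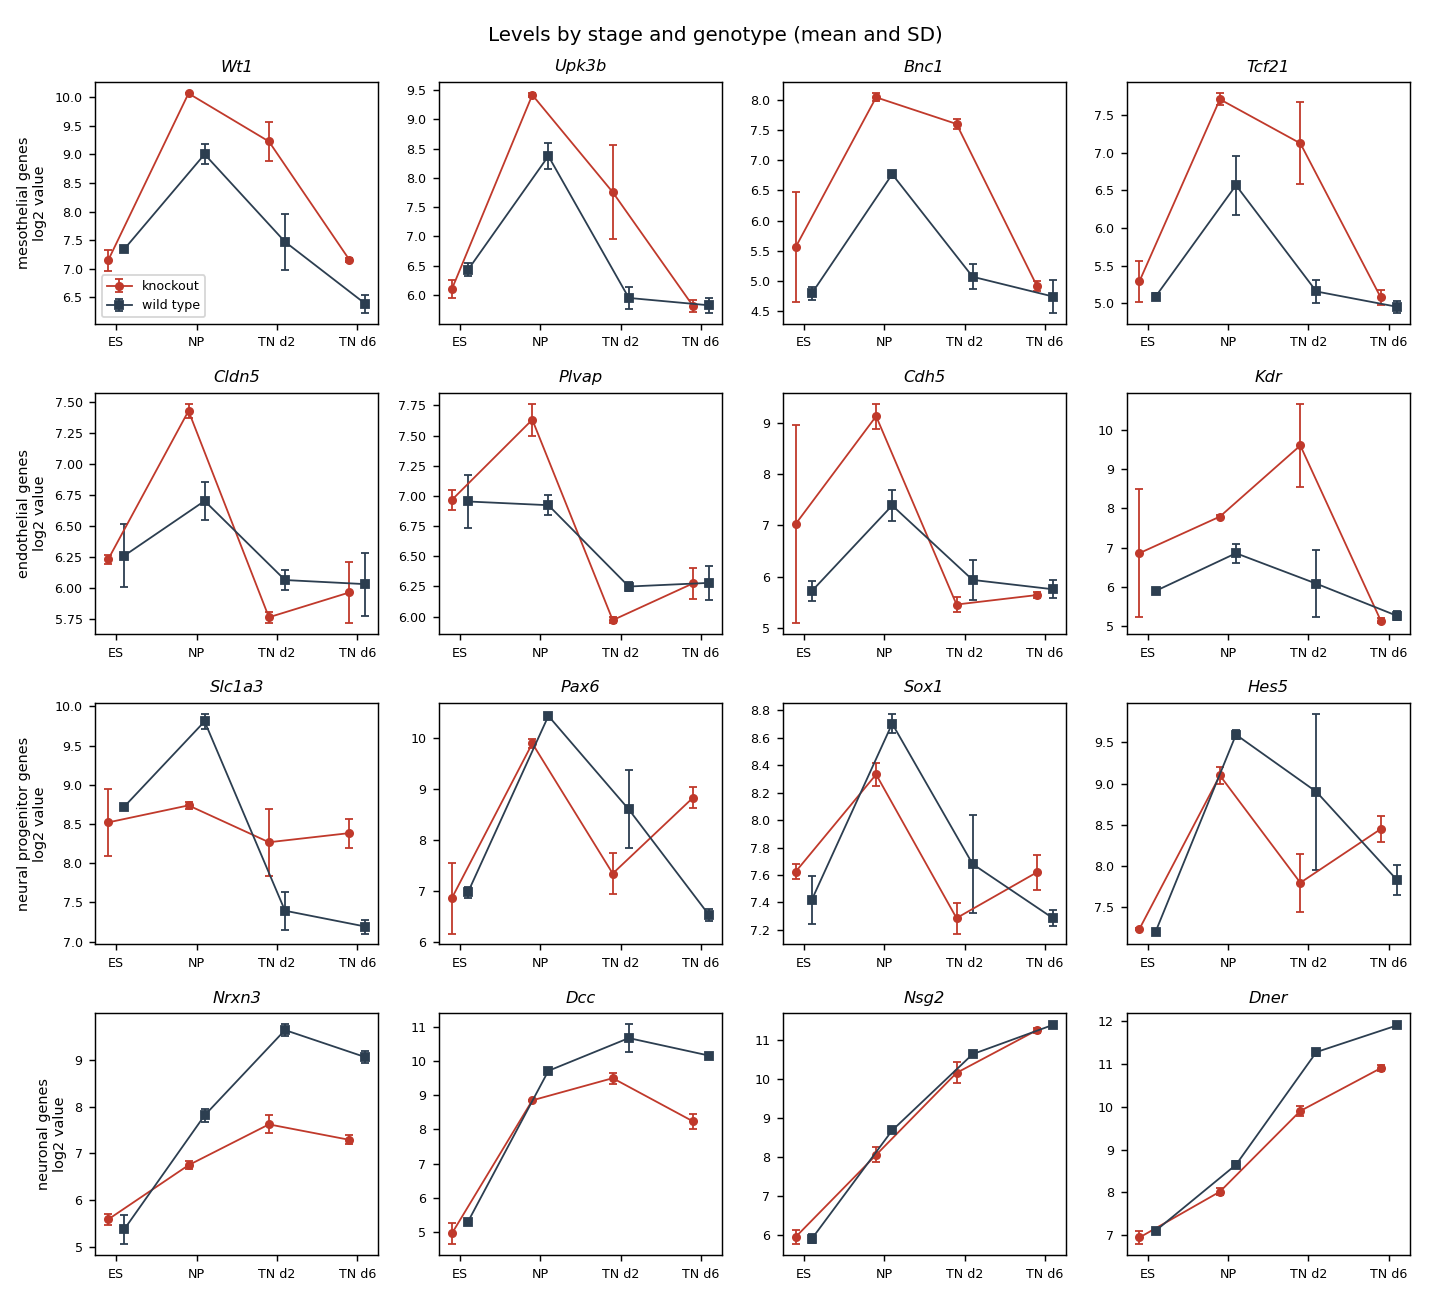
Mean log2 level (y axis) of 16 genes by stage (x axis), with SD as bars, for knockout (circles) and wild-type cells (squares), 3 arrays per point at TN day 6 and 2 at every earlier stage. Several genes were chosen after their values were seen. Wt1, Upk3b, Bnc1 and Tcf21 peak at the NP stage in both genotypes, and Nrxn3 and Dcc are lower in knockout cells from the NP stage onward.

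The other knockout comparisons share no array with that of NP cells, although the spread of each gene was taken from all arrays in each of them. Of the 76 genes that rose in NP cells, 21 also rose at TN day 2 (27.6%, against 5.49% of all genes) and 7 fell (9.21%, against 5.97%). The 21 make up 1.92% of the 1094 genes that rose at TN day 2. Stk26 rose there with a log2 fold change of 3.43 ± 0.18, adjusted p = 3.5e-10, Bnc1 with 2.54 ± 0.24, adjusted p = 1e-06 and Wt1 with 1.75 ± 0.18, adjusted p = 2.6e-06. Wnt2b, Tcf21, Tbx18, Upk3b, Lrrn4, Bnc2, Fzd4 and Adgrg2 were among the others. Those that fell at TN day 2 were Cdh10, Lrrc7, Kcnd2, Cnih2, Adgrf5, Sv2a and Slc23a2, with values of -1.40 for Cdh10 and -1.07 for Lrrc7. Tmem255a had 0.17 ± 0.36, adjusted p = 0.85 at TN day 2.

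Of the 48 genes that fell in NP cells, Top2b aside, 15 also fell at TN day 2 (31.2%, against 5.97% of all genes) and 2, Gadd45b and Slc1a3, rose (4.17%, against 5.49%). Nrxn3 had a log2 fold change of -2.01 ± 0.16, adjusted p = 1.3e-07 at TN day 2, Cacna2d3 of -1.58 ± 0.14, adjusted p = 2.6e-07, Nlgn1 of -1.33 ± 0.15, adjusted p = 1.2e-05 and Dcc of -1.17 ± 0.17, adjusted p = 0.00016. Dner, Pid1, Chgb, Fgfr4 and Nsg2 were among the others. At TN day 6, 8 of the 48 fell (16.7%, against 4.80%) and 6 rose (12.5%, against 5.38%), while 6 of the 76 higher genes rose (7.89%, against 5.38%) and 9 fell (11.8%, against 4.80%). In ES cells none of the 76 rose and Dock11 fell, whereas Actc1 and Muc1 fell and Eno2 rose among the 48. ES cells had 70 calls in all (0.351%), 17 higher (0.0853%) and 53 lower (0.266%).

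**Figure D4:**
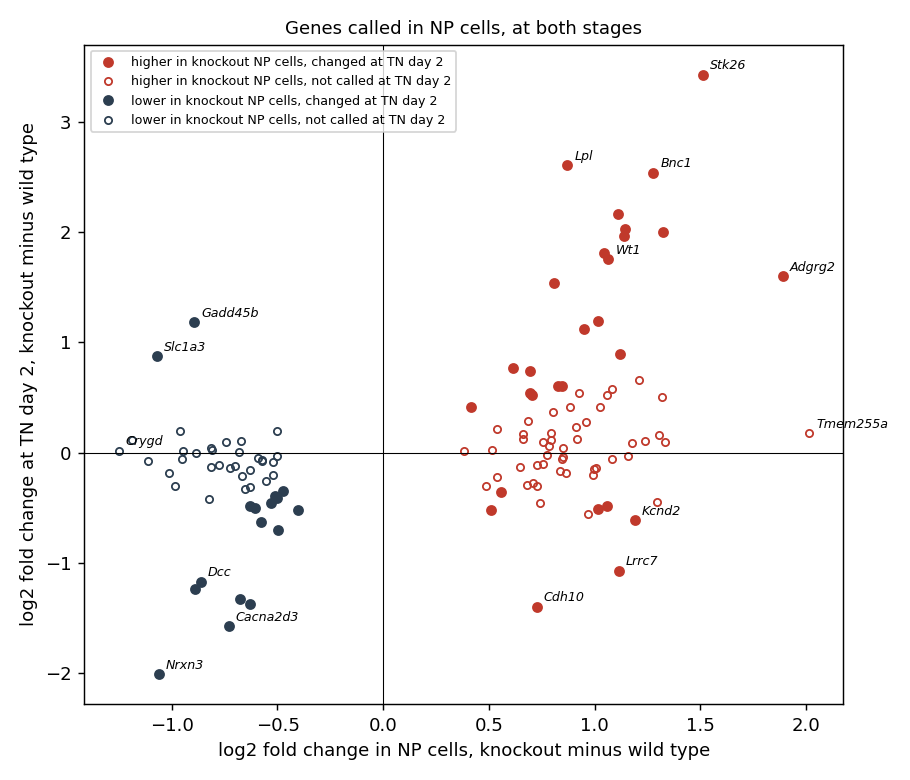
Log2 fold change, knockout minus wild type, in NP cells (x axis) and at TN day 2 (y axis) for the genes called in NP cells, Top2b aside, with filled points for genes called at TN day 2. Stk26, Lpl and Bnc1 lie highest at TN day 2, Nrxn3 lies lowest, and Cdh10, Lrrc7 and Kcnd2 are higher in knockout NP cells and lower in knockout cells at TN day 2.

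The differences between effects were tested directly. The effect in NP cells differed from that in ES cells for 51 genes (0.256%), and the effect at TN day 2 from that in NP cells for 541 genes (2.71%), more positive for 1.38% and more negative for 1.33%, and at an unadjusted p under 0.05 for 2015 and 2999 genes. Since the genes below were called in NP cells, an effect that is smaller elsewhere is partly a result of that choice. Of the 76 higher genes, 20 had a more positive effect in NP than in ES cells, and at TN day 2, 32 had a lower and 2 a higher effect than in NP cells. The difference between TN day 2 and NP cells was 1.92 ± 0.26, adjusted p = 0.00037 for Stk26, -1.54 ± 0.14, adjusted p = 4.5e-06 for Sv2a, -2.12 ± 0.20, adjusted p = 4.5e-06 for Cdh10 and 1.94 ± 0.32, adjusted p = 0.0024 for Slc1a3. Stk26 thus had a larger effect at TN day 2, and the effects of Sv2a, Cdh10 and Slc1a3 changed sign. Between NP and ES cells the difference was 1.88 ± 0.34, adjusted p = 0.014 for Adgrg2 and 1.99 ± 0.28, adjusted p = 0.0025 for Tm4sf5. In a limma fit to only the arrays compared, 0 differences between NP and ES cells were called, with 880 at an unadjusted p under 0.05.

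Genomic span, from the start to the end of the gene in RefSeq GRCm38.p6, was found for 19853 genes. The median span was 28.7 kb over higher genes, 49.7 kb over lower genes without Top2b, and 17.7 kb over all genes. Of 939 genes spanning over 200 kb, 10 were higher and 10 lower in knockout NP cells (1.06% each), with a median log2 fold change of -0.03. The 10 lower were Nrxn3, Dcc, Nlgn1, Cacna2d3, Creb5, Dner, Kcnh1, Nckap5, Pid1 and Ptprr, and the 10 higher were Kcnd2, Lrrc7, Alcam, Bnc2, Zfpm2, Cntn1, F8, Kcnmb2, Stxbp5l and Zbtb7c. Nrxn3 spans 1612 kb. At TN day 2, 24.1% of the genes over 200 kb were lower and 7.99% higher in knockout cells, with a median of -0.16. Under 20 kb, 0.265% of genes were higher and 0.170% lower in NP cells. In wild-type cells between ES cells and TN day 2, 21.1% of the 76 higher genes rose and 38.2% fell. Of the 48 lower genes 41.7% rose and 33.3% fell, against 24.3% and 29.5% of all genes. Over that course 53.8% of all genes changed, and it shares no array with the NP comparison.

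**Figure D5:**
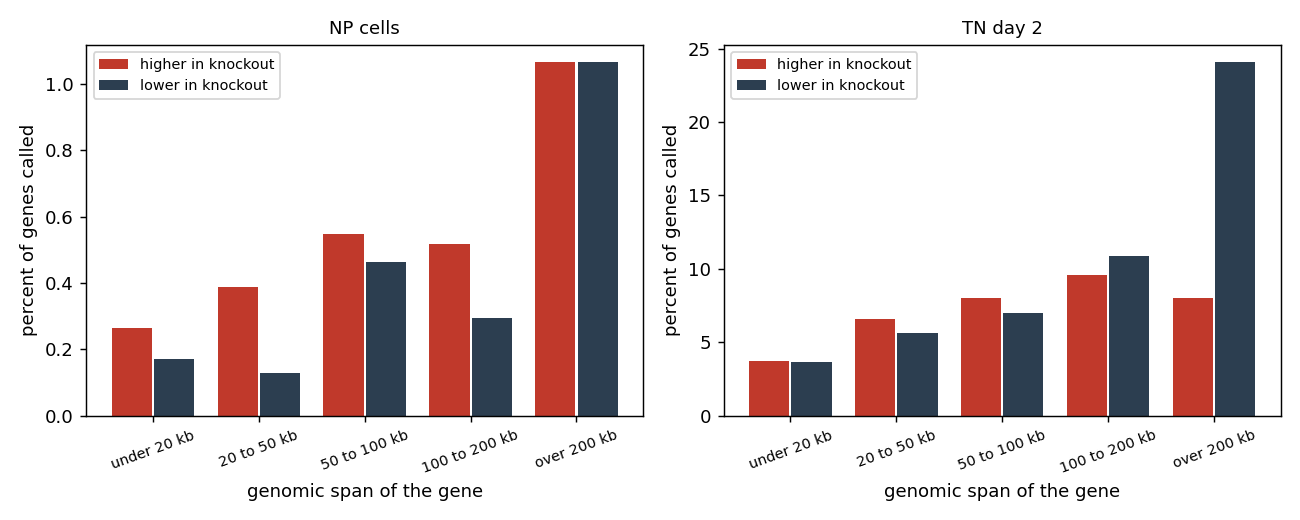
Percent of genes called higher and lower in knockout cells (y axis) by genomic span (x axis), in NP cells (left) and at TN day 2 (right), on different y scales. In NP cells the class over 200 kb has 1.06% in each direction, and at TN day 2 it has 24.1% lower and 7.99% higher.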

How the data were processed

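The deposited table held 1 log2 value for each of 35556 probe sets on 28 arrays; the submitters' processing notes name oligo 1.14.0 as the tool the authors used. Summarization, background correction, log base and genome build were not given in the sources used here, and the values, between 1.96 and 13.99, were read as base 2. No further normalization was applied. Of the probe sets 21789 carried 1 gene symbol in the platform annotation, 1621 several and 12146 no entry. For 999 genes with several probe sets, that with the highest mean was kept, which gave 19938 genes.

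All 28 arrays entered 1 limma fit (version 3.58.1, R 4.3.3) with a mean for each of 12 groups (16 residual and 4.87 prior degrees of freedom). Tests were two-sided with Benjamini-Hochberg adjustment over all genes, and a call is an adjusted p under 0.05. Values after ± are SEs of the model unless marked SD, and arrays are given in the order of their replicate numbers. Alternatives changed the arrays in the fit, normalization, weights, variance prior, filter on dim genes, probe set rule and replicate block, or left out 1 array.

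The members and the 45 gene lists (992 symbols, 926 measured) were chosen with earlier results of these data known. Genes named were Top2b and Top2a, the 18 called genes with the largest rise and the 18 with the largest fall, every called list member, and the 2 members with the largest change of each list without a call. Other genes, and the mesothelial and embryonic blood lists, were named after their values were seen. The list of embryonic blood genes had 1 call, Cd34, of 12 (median 0.43).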

Additional observations from a re-analysis of the deposited data

Results flagged for a closer look

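Some knockout effects differed between stages, by the limma test of the difference itself with an adjusted p under 0.05. For genes called in NP cells, an effect that is smaller elsewhere is partly a result of that choice. The effect in NP cells was larger than that in ES cells, on the log2 scale, for 20 of the 76 genes that rose in NP cells: Adgrg2 1.88, Stk26 1.66, Prl7b1 1.11, Tpbpa 1.49, Tm4sf5 1.99, Sv2a 0.81, Cdh10 1.05, Wnt4 1.13, Cyp2s1 1.31, Wt1 1.26, Bnc2 1.31, Cd34 1.37, Bcl6b 1.11, Cnih2 0.75, Acot9 1.02, Dock11 0.81, Neto2 1.17, Aox4 0.97, Dsc2 1.18 and Slc23a2 0.85. It was more negative for 12 of the 49 genes that fell: Cyp2d22 -1.55, Agtr1a -1.03, Nrxn3 -1.27, Mir670hg -1.21, Pth1r -1.58, Afap1l1 -0.96, Unc5a -1.02, Eno2 -1.10, Rgs9 -0.77, Scube2 -1.32, Gpr157 -0.91 and Nckap5 -0.84. Of the list members followed singly but not called in NP cells, 2 had such a difference, Gad2 -1.28 and Esam 1.0. No difference between NP and ES effects was called in a fit to those arrays alone, where 880 genes had an unadjusted p under 0.05, or with array weights, where 847 had one (limma).

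The effect at TN day 2 minus that in NP cells was positive for 2 of the 76 genes that rose in NP cells, Stk26 1.92 and Lpl 1.74. For 32 others it was negative: Kcne3 -1.23, Prl7b1 -1.15, Tpbpa -1.74, Neurl3 -1.14, Kcnd2 -1.80, Tm4sf5 -1.19, Lrrc7 -2.18, Lhx2 -1.15, Sv2a -1.54, Cntn1 -0.77, Cdh10 -2.12, Wnt4 -0.80, Cldn5 -1.03, Plvap -0.99, Crym -1.53, Adgrf5 -1.52, Cd34 -1.14, Myct1 -0.86, Bcl6b -0.98, Cga -1.20, Cnih2 -1.03, Rai2 -1.20, Grin2c -0.90, Neto2 -1.05, Stxbp5l -0.76, Aox4 -0.73, Cebpd -0.84, Cltb -0.79, Ecel1 -1.15, Ppp1r13b -1.01, Raph1 -0.66 and Slc23a2 -0.92. Of the 49 genes that fell in NP cells, it was positive for 14, Crygd 1.27, Cyp2d22 1.31, Agtr1a 1.03, Slc1a3 1.94, Th 0.83, Lipg 1.15, Utf1 0.89, Gadd45b 2.08, Afap1l1 0.88, Actc1 0.85, Rgs9 0.44, Creb5 0.70, Glb1l2 0.69 and Nckap5 0.84, and negative for 3, Nrxn3 -0.95, Dner -0.75 and Cacna2d3 -0.85. Of the list members followed singly but not called in NP cells, it was positive for Aldh1a1 2.26, Perp 2.40, Rad50 0.70, Upk1b 1.56, Aldh1a2 2.13, Podxl 2.26 and Kdr 2.58, and negative for Sorcs3 -1.10, Sox18 -1.18 and Gata5 -0.68.

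Outside the genes compared, 13767 probe sets carried no single gene symbol. In a fit over all 35556 probe sets, 12 of them were called in NP cells (0.0872%), 7 higher and 5 lower in knockout cells, with log2 fold changes of -1.56 to 1.03. These probe sets have no gene name here. With 2 arrays per group, no array was tested for standing apart from its group.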

How the results depend on the processing

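The direction of every called gene named by the rule was the same under each alternative, of 14 run, that tested it, the filter on dim genes having left some untested. Of those genes without Top2b, 53 in all, 16 lost their call under none. The fall of Top2b stayed called throughout. Of the genes not called, Top2a turned to 0.11 with the mean of probe sets and lay between -0.12 and 0.050 with 1 NP array left out. The number of calls in NP cells was 125, 76 higher and 49 lower. It was 201, 146 and 55 with only the arrays compared, 377, 236 and 141 without the 2 knockout ES arrays, 198, 116 and 82 after quantile normalization, and 251, 158 and 93 with array weights. With 1 NP array left out it was 37 to 72, with 21 to 57 higher and 14 to 37 lower, and the group left with 1 array was assumed to vary like the others. The difference between NP and ES effects, 51 genes, gave 0 in a fit to those arrays alone and also with array weights, where 880 and 847 genes had an unadjusted p under 0.05 (limma). It gave 87 with a trended, robust variance prior and 27 to 60 with 1 array left out. The difference between TN day 2 and NP effects, 541 genes, gave 188 with only the arrays compared, 1378 without the knockout ES arrays and 172 to 344 with 1 array left out. Vascular genes called numbered 2, then 8 with only the arrays compared, 11 without the knockout ES arrays and 0 to 1 with 1 array left out; mesothelial genes numbered 9, and 0 to 4 with 1 array left out. With the replicate block 110 genes were called, 74 higher and 36 lower, of which 95 were also among the 125. The deviations of same-numbered NP arrays correlated at -0.23, which does not show that the numbers pair the arrays, and the crossed block, chosen after the data were seen, gave 121 calls. The causes of these shifts were not tested. With 2 arrays per group, and no detection calls, small changes and genes of low signal are the least certain.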
